A study of Mus musculus with 8 samples.

Results

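The 10 genes described here encode proteins of the cardiac Z-disc or proteins that bind titin, and they were taken from the deposited tables by gene symbol: Tcap, Ttn, Myoz2, Ldb3, Actn2, Csrp3, Nebl, Ankrd1, Ankrd2 and Cmya5. All 10 were found among the 41128 gene IDs of the count table, and 9 of them were abundant enough to be tested. The libraries are stranded total RNA from the left ventricle of FVB mice aged 8 to 12 weeks, 4 of them wild-type (WT) littermates and 4 labelled HOM, with a CRISPR deletion of RE1, an element of the super enhancer beside Nppa and Nppb. The sources used here state neither the sex of the mice nor how many lines carry the deletion. The members lie on 7 chromosomes and 0 of them on chromosome 4, which holds Nppa and Nppb.

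The Z-disc is the border of the sarcomere, where actin filaments of neighbouring sarcomeres are anchored by cross-links of α-actinin. Titin, the giant protein encoded by Ttn, runs from the Z-disc to the M-band at the centre of the sarcomere and gives cardiac muscle much of its passive stiffness. At the Z-disc the ends of titin molecules are joined by telethonin, the product of Tcap. Other Z-disc proteins link this scaffold to signalling: the product of Myoz2 binds calcineurin, that of Csrp3 is the muscle LIM protein, and those of Ankrd1 and Ankrd2 are ankyrin-repeat proteins that bind the elastic part of titin and can enter the nucleus. Mutations in several of these genes cause human cardiomyopathies.

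Total counts per library ran from 16778368 to 37133306. The deletion was visible in its target genes. Nppb, which encodes B-type natriuretic peptide, had 1840 to 4619 normalized counts in the wild-type libraries and 1.04 to 11.0 in the knockout ones. Nppa, which encodes atrial natriuretic peptide, had 327 to 628 and 4.16 to 9.63. Normalized counts are the authors' values, each raw count divided by the size factor of its library. Cardiomyocyte RNAs were abundant in every library: the summed level of 9 marker genes such as Myh6 and Tnnt2 was 55575 to 59886 CPM (counts scaled to a common library size) in wild-type and 56364 to 59813 CPM in knockout libraries. All 7 skeletal muscle markers had counts, with a summed level of 279 to 289 CPM and 264 to 325 CPM. Most of that sum came from the fast myosin genes Myh1 and Myh4, which averaged 5736 and 1642 normalized counts in wild-type libraries. Myh2 and Actn3 averaged 34.9 and 21.3 there. Mylpf, Tnnt3 and Tnni2, at 4.14, 6.28 and 6.64, were too low to be tested. The summed level of 5 fibroblast markers was higher in every knockout library (520.5 to 535 CPM against 466 to 499 CPM), and their log2 fold changes were positive for 5 of 5, with 1 past the test (Pdgfra). The 5 mesothelial markers were all positive too, at log2 fold changes of 1.70 to 2.03 with 0 past the test and 5 at an unadjusted p under 0.05, and their summed level was 0.745 to 9.78 CPM and 3.66 to 20.6 CPM. The 5 endothelial markers were all negative, with a median log2 fold change of −0.10, 0 past the test and 1 at an unadjusted p under 0.05 (Pecam1, groups apart), and their summed level was 479 to 536 CPM and 449 to 495 CPM. Summed levels of the endothelial, mesothelial and remaining cell type lists overlapped between the groups. The part of fibroblast, mesothelial and endothelial RNA in the results below was not tested.

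Of the 9 tested members, 1 was lower in the knockout and none was higher. Tcap fell by 31.4%, while each of the other 8 had a small positive difference that did not pass the test. Over all 16551 genes tested, 0.785% were called, 0.278% higher and 0.508% lower, at an adjusted p under 0.05 in the quasi-likelihood F test of edgeR. Of the other 8 members, 3 had an unadjusted p under 0.05 in that test (Myoz2, Nebl and Csrp3), compared with 2176 of all 16551 genes tested. Their largest difference was 11.9%, for Myoz2. The median log2 fold change (knockout minus wild-type) of the 9 members was 0.06, that of the 9 cardiomyocyte markers was 0.04, and that of all genes tested was 0.0001. It was positive for 8 of the 9 members, for 8 of the 9 markers and for 50.03% of all genes tested.

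**Figure D1:**
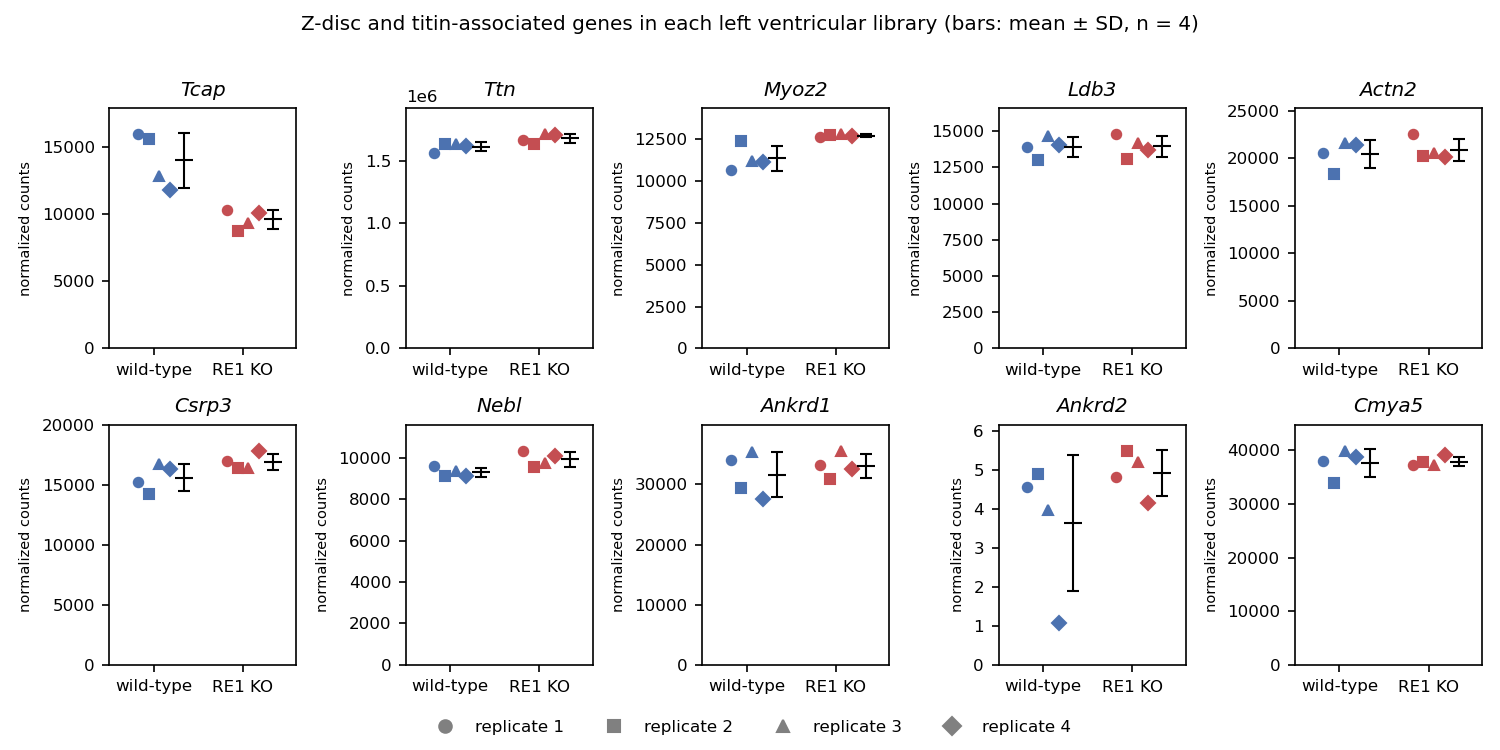
Normalized counts (linear axes from 0) of the 10 genes in each of the 8 left ventricular libraries, with blue for wild-type, red for RE1 knockout, a symbol per replicate number and bars for the mean ± SD of 4 libraries. Tcap is the gene whose knockout libraries all lie below the wild-type ones, with 8762 to 10320 against 11772 to 15964 normalized counts, and Ankrd2 is close to 0 throughout.

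Tcap, which encodes telethonin, the protein that caps and joins titin at the Z-disc, was lower in all 4 knockout libraries. The gene (ENSMUSG00000007877) spans 98383811 to 98384953 on the plus strand of chromosome 11 (GRCm38), with 948 bases of exon in 2 blocks. Its normalized counts were 15964, 15576, 12820 and 11772 in wild-type replicates 1 to 4. They were 10320, 8762, 9369 and 10088 in knockout replicates 1 to 4. The groups did not overlap: the lowest wild-type library lay above the highest knockout library, while wild-type replicates 1 and 2 stood well above replicates 3 and 4.

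Tcap averaged 14033 ± 2057 normalized counts in wild-type libraries, and its knockout mean was 9635 ± 709 (SD, n = 4 each). Its log2 fold change was −0.54 (SE 0.09; adjusted p = 0.011 in edgeR), or 31.4% lower, with a 95% interval from 39.6% to 22.2% lower. Fewer cells of a type and less RNA per cell cannot be told apart in bulk tissue, for this gene and for the others. The raw counts of Tcap were 6411 to 20930 per library, so counting error was far below the spread between libraries. In the authors' deposited table Tcap was also lower, with a log2 fold change of −0.54 in the same direction and an adjusted p of 1.02e-06, where 1.69% of the genes with an adjusted p were called. By p, Tcap ranked 25 among the genes tested, and by mean normalized count it ranked 2 among the 130 called genes.

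The call of Tcap held in 15 of 19 alternative analyses and its sign in all 19. It ended with edgeR's robust empirical Bayes option, which was not used for the value above and whose use or omission had not been set in advance (adjusted p = 0.0761; 1.06% of all genes called, 0.375% higher and 0.689% lower). It also ended without knockout replicate 2 (log2 fold change −0.50, edgeR adjusted p = 0.0552) and with the share of mitochondrial rRNA as a covariate (−0.55, edgeR adjusted p = 0.063). That share was 8.51% to 10.5% of counts in wild-type and 6.19% to 9.40% in knockout libraries.

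**Figure D2:**
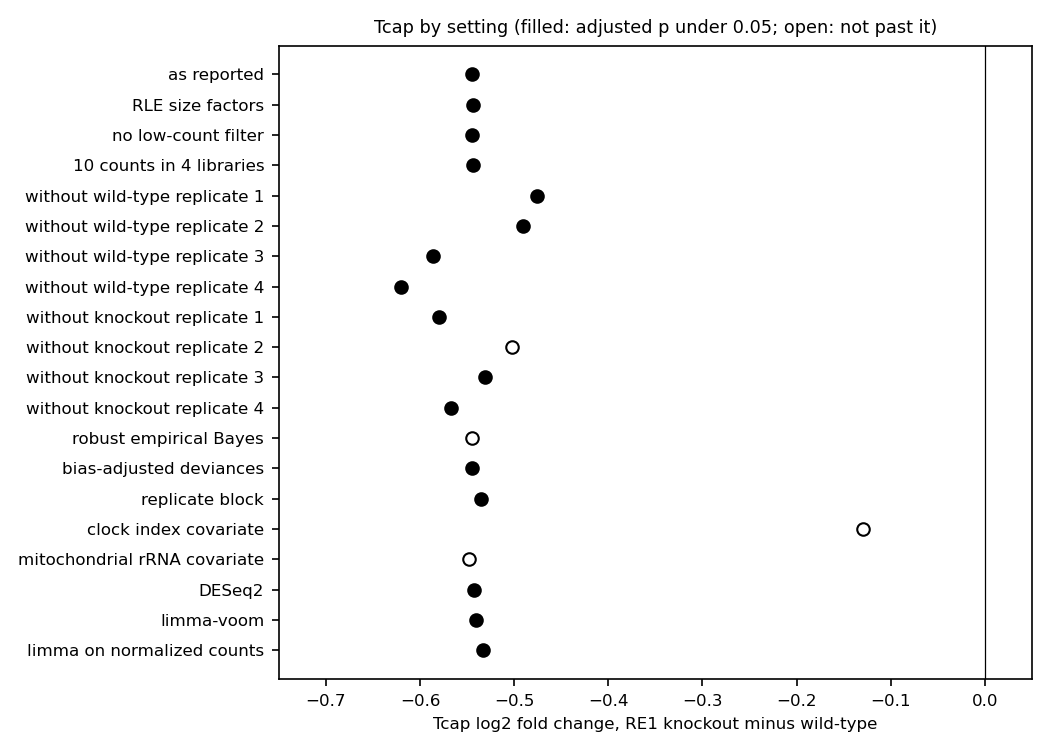
Log2 fold change of Tcap, RE1 knockout minus wild-type (horizontal axis), as reported and under each of the 19 alternatives (rows), with filled circles for an adjusted p under 0.05. All values are negative, most lie near −0.54, and the value with the clock index as a covariate is −0.13.

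Tcap is known to be expressed with a circadian rhythm in mouse heart, and clock genes differed between these groups. A clock index was taken as the mean log2 CPM of Arntl, Clock, Npas2 and Nfil3 minus that of Dbp, Per1, Per2, Per3, Tef, Hlf, Nr1d1 and Nr1d2. It was −3.43, −3.29, −2.73 and −1.64 in wild-type replicates 1 to 4. It was −1.21, −0.23, −1.13 and −0.24 in knockout replicates 1 to 4. Every knockout library thus had a higher index than every wild-type library, and among the wild-type libraries Tcap was highest where the index was lowest. Among the knockout libraries the index lay in close pairs. Replicates 2 and 4, at −0.232 and −0.240, had 8762 and 10088 normalized counts of Tcap. Replicates 1 and 3, at −1.21 and −1.13, had 10320 and 9369. Tcap thus had no clear order with the index among the knockout libraries.

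Of the 4 genes on the rising side of the index 3 were called higher, and of the 8 on the other side 6 were called lower. With the index as a covariate the log2 fold change of Tcap was −0.13 (edgeR adjusted p = 0.849; 2 genes called in all). Because the index separates the groups completely, a difference that goes with the clock and one that goes with the genotype cannot be told apart here. The sources used here do not state the time of day at which tissue was collected.

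**Figure D3:**
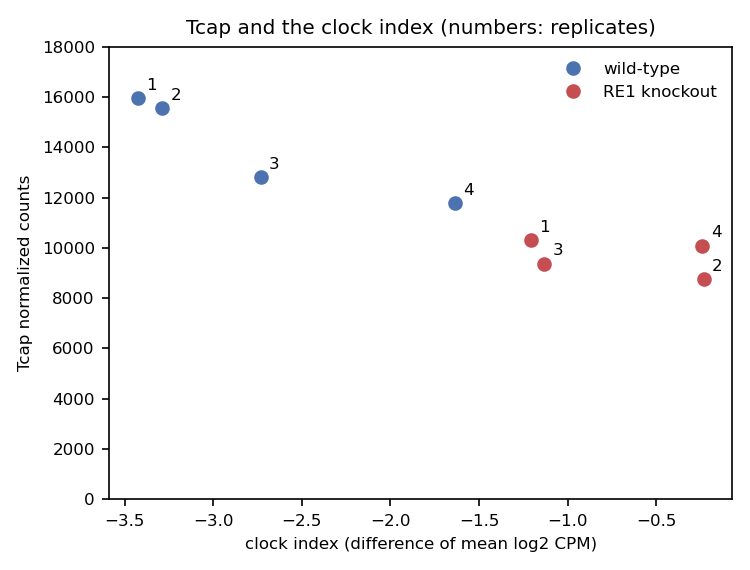
Normalized counts of Tcap (vertical axis, from 0) against the clock index, a difference of mean log2 CPM (horizontal axis), with 1 point per library and its replicate number. Wild-type libraries lie at an index of −3.43 to −1.64 and knockout libraries at −1.21 to −0.23, with no overlap on either axis.

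Ttn, the gene of titin, was the most abundant member by counts and did not pass the test. It spans 76703980 to 76982547 on the minus strand of chromosome 2, with 116825 bases of exon. It took 6.11% ± 0.158 of all counts in wild-type and 6.39% ± 0.17 in knockout libraries (SD, n = 4 each), or 91.3% and 91.6% of the counts of the 10 members together. Its normalized counts were 1565800, 1632852, 1636720 and 1623083 in wild-type replicates 1 to 4. They were 1666494, 1638238, 1713874 and 1706953 in knockout replicates 1 to 4. The knockout libraries lay just above the wild-type ones, with knockout replicate 2 above wild-type replicate 3 by a margin smaller than the spread within either group.

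The log2 fold change of Ttn was 0.06 (SE 0.04; adjusted p = 0.594 in edgeR), with a 95% interval from 2.12% lower to 10.7% higher. These are counts per gene, so they do not tell the isoforms of titin apart. An antisense gene, Gm13938, overlaps 453 bases of Ttn exons and had at most 7 counts in a library. The ratio of Tcap to Ttn within a library does not depend on library scaling. On the log2 CPM scale it was −6.62, −6.71, −7.00 and −7.11 in wild-type replicates 1 to 4, against −7.33, −7.55, −7.51 and −7.40 in the knockout replicates. It was 1.51-fold lower in the knockout (difference −0.59, two-sided exact permutation p = 0.0286), and 0.0286 is the smallest p that 4 against 4 libraries can give. Tcap was lower and Ttn higher in every knockout library, so the ratio had to give this p. It is therefore no evidence beyond the separate values of the genes.

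The backbone of the Z-disc showed no change past the test. Actn2, which encodes the α-actinin of cardiac Z-discs (chromosome 13, 12269426 to 12340760, minus strand), had 20548, 18315, 21585 and 21380 normalized counts in wild-type replicates 1 to 4. It had 22524, 20240, 20553 and 20159 in knockout replicates 1 to 4, and most knockout libraries lay inside the wild-type range. Its log2 fold change was 0.03 (SE 0.05; adjusted p = 0.877 in edgeR), with a 95% interval from 6.01% lower to 10.6% higher. Ldb3 (chromosome 14, 34526603 to 34588682, minus strand) encodes Cypher or ZASP, a PDZ and LIM domain protein that binds α-actinin. Its wild-type mean was 13908 ± 681 and its knockout mean 13949 ± 713 normalized counts (SD, n = 4 each), at a log2 fold change of 0.003 (edgeR adjusted p = 0.99). Its 95% interval ran from 6.62% lower to 7.57% higher.

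Nebl (chromosome 2, 17343909 to 17731464, minus strand) encodes nebulette, a cardiac relative of nebulin that ties actin to the Z-disc. Its normalized counts were 9582, 9120, 9342 and 9105 in wild-type replicates 1 to 4, against 10332, 9536, 9734 and 10099 in the knockout replicates. Only knockout replicate 2 fell within the wild-type range. The log2 fold change was 0.09 (SE 0.04; adjusted p = 0.333 in edgeR), or 6.78% higher. Cmya5 (chromosome 13, 93040713 to 93144724, minus strand) encodes myospryn, a large protein that binds desmin and α-actinin. Its means were 37655 ± 2649 and 37898 ± 874 normalized counts (SD, n = 4 each), and its fold change on the log2 scale was 0.01 (edgeR adjusted p = 0.967). Antisense genes overlap 2570 bases of Cmya5 exons, and 18.2% of its 100-base stretches also occur in transcripts of other genes on either strand. The sources used here do not state whether counting used strand, and the counts of Cmya5 are therefore less certain than those of the members with no such overlap.

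Of the signalling proteins of the Z-disc, Myoz2 came nearest to the threshold. It encodes calsarcin-1, which tethers calcineurin to α-actinin and holds it in check (chromosome 3, 123006206 to 123035015, minus strand). It had 10681, 12433, 11220 and 11136 normalized counts in wild-type replicates 1 to 4. It had 12646, 12765, 12811 and 12683 in knockout replicates 1 to 4. The groups did not overlap, but wild-type replicate 2 stood close to the knockout libraries and apart from the other wild-type ones.

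Myoz2 averaged 11367 ± 749 and 12726 ± 75.2 normalized counts (SD, n = 4 each), and the log2 fold change was 0.16 (SE 0.05; adjusted p = 0.129 in edgeR). Its 95% interval ran from 4.43% to 19.9% higher. The coefficient of variation among the knockout libraries was 0.591%, below the counting error of 1.13% in the shallowest library. Myoz2 passed the threshold without wild-type replicate 2 (log2 fold change 0.21, edgeR adjusted p = 0.0293), in DESeq2 (adjusted p = 0.0497; 2.06% of genes called, 0.778% higher and 1.28% lower) and without the low-count filter (edgeR adjusted p = 0.0497). In the authors' deposited table its adjusted p was 0.0734. Csrp3, the gene of muscle LIM protein (chromosome 7, 48830398 to 48848033, minus strand), had 15239, 14236, 16734 and 16324 normalized counts in wild-type replicates 1 to 4, against 16980, 16425, 16450 and 17872 in the knockout replicates. Wild-type replicate 3 lay among the knockout values and replicate 4 just below them, and the log2 fold change was 0.11 (SE 0.05; adjusted p = 0.357 in edgeR).

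In all, the groups did not overlap in normalized counts for 3 of the 9 tested members, Tcap, Ttn and Myoz2, compared with 7.23% of all genes tested. A two-sided exact permutation test of log2 CPM gave p = 0.0286 for each of the 3, p = 0.0571 for Nebl, p = 0.114 for Csrp3 and at least 0.457 for the other 4 members. The forest plot of fold changes shows Tcap apart from the other members, whose intervals all lie within a log2 fold change of −0.1 to 0.26.

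**Figure D4:**
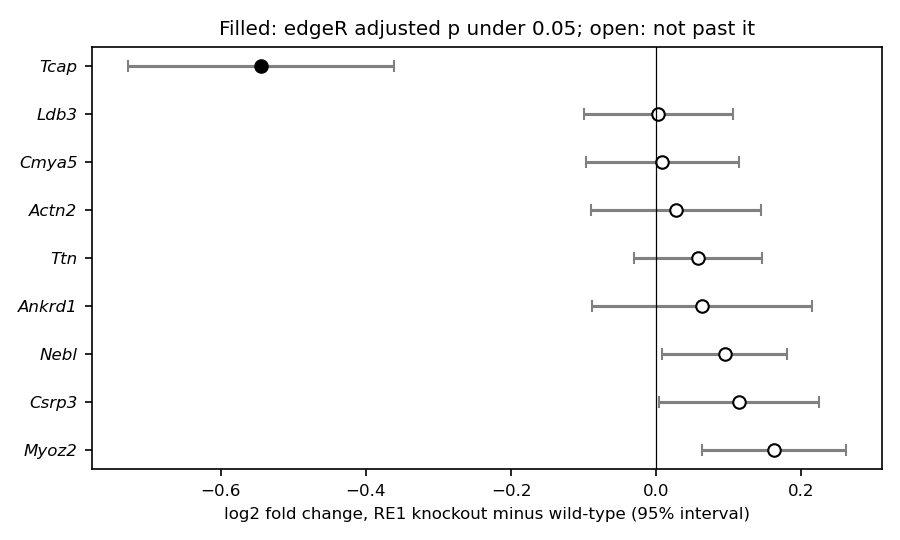
Log2 fold change (RE1 knockout minus wild-type) of the 9 tested members with 95% intervals, filled where the edgeR adjusted p was under 0.05. Tcap, at −0.54, is the filled point, and the other 8 lie between 0.003 and 0.16.

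Ankrd1 encodes CARP, a stress-responsive ankyrin-repeat protein that rises in many models of hypertrophy, and it did not differ detectably. It lies on chromosome 19 (36111961 to 36120099, minus strand). Its normalized counts were 34089, 29427, 35385 and 27599 in wild-type replicates 1 to 4. They were 33155, 30928, 35604 and 32549 in knockout replicates 1 to 4. The groups overlapped throughout (log2 fold change 0.06, SE 0.07; adjusted p = 0.756 in edgeR), and the 95% interval ran from 5.90% lower to 16.0% higher. With the clock index as a covariate, its value was 0.31 (edgeR adjusted p = 0.645). Over its alternatives the adjusted p of edgeR, DESeq2 or limma ran from 0.40 to 0.992.

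Its relative Ankrd2, known mainly from slow skeletal muscle (chromosome 19, 42036000 to 42045110, plus strand), was close to undetected. Its raw counts were 6, 5, 3 and 1 in wild-type replicates 1 to 4, against 3, 8, 5 and 4 in the knockout replicates, and it was left out of the test by the low-count filter. At this depth a difference in Ankrd2 between the groups was not detectable. Other ventricular stress genes were examined beside Ankrd1. Rcan1, a calcineurin inhibitor and target, had a wild-type mean of 1399 ± 332 and rose to a mean of 2168 ± 235 normalized counts (SD, n = 4 each), or 0.64 on the log2 scale (SE 0.13; adjusted p = 0.0372 in edgeR). That call ended in 5 of the 8 analyses without a library (wild-type replicate 1 or 2, knockout replicate 1, 2 or 3; edgeR adjusted p from 0.0792 to 0.121) and with the robust option (edgeR adjusted p = 0.223). It also ended with the mitochondrial rRNA covariate (edgeR adjusted p = 0.061) and with the clock index covariate, where the value was 0.21 (edgeR adjusted p = 0.851). Xirp2, which encodes an actin-binding Xin-repeat protein, was at 0.19 (SE 0.07; adjusted p = 0.22 in edgeR), Xirp1 at 0.13 (SE 0.06) and Myh7, the slow myosin heavy chain gene, at 0.01 (SE 0.04). Acta1, the skeletal α-actin gene, was at 0.64 (SE 0.29; adjusted p = 0.361 in edgeR) and at 1.20 (edgeR adjusted p = 8.00e-04) without wild-type replicate 2, which held the highest wild-type value of 21464 normalized counts.

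Promoter windows of 250 bases before and 50 bases from the start site on were taken from RefSeq (GRCm38.p6) for 9 of the 10 members, 14 windows in all, and Tcap was the member without an entry. Each window was searched for CACGTG (the E-box bound by clock and other bHLH factors), GGAATG (the M-CAT element bound by TEAD factors), the CArG box bound by SRF and the MEF2 site on both strands, and for TATAAA on the gene's strand. Of 32817 such windows of all genes, 7.15% held CACGTG, 14.7% GGAATG, 1.63% a CArG box, 3.19% a MEF2 site and 8.32% TATAAA. A match is a description of letters and not of binding. The windows of Myoz2, Ankrd1 and Actn2 are shown because these genes stand for the signalling, titin-binding and backbone members, with the matches in capitals and no overlap between them. That of Myoz2 (chr3:123034938-123035237, minus strand) holds 1 MEF2 site, that of Ankrd1 (chr19:36119795-36120094, minus strand) 2 copies of GGAATG, and that of Actn2 (chr13:12340683-12340982, minus strand) 2 copies of CACGTG.
Myoz2: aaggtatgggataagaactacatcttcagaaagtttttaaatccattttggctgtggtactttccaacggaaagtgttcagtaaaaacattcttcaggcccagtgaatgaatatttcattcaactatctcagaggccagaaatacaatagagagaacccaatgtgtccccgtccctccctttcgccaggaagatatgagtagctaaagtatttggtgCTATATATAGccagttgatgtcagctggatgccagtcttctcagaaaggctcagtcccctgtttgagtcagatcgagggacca
Ankrd1: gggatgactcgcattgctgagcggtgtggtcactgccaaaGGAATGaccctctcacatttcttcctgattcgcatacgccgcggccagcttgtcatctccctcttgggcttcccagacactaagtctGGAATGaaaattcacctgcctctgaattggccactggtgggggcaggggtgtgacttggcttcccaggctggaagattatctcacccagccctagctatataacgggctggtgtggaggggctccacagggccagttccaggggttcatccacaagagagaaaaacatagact
Actn2: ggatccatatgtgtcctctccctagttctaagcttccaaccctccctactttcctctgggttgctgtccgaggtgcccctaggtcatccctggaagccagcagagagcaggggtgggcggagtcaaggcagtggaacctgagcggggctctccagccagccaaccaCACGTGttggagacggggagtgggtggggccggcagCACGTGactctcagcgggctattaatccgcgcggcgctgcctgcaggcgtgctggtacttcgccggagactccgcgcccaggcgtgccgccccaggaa
The MEF2 site of Myoz2 begins at −33 from the start site. The copies in Ankrd1 begin at −210 and −123, and those in Actn2 at −84 and −48. The Ankrd1 window lies wholly inside the GENCODE span of that gene, whose minus-strand start is at 36120099. Its positions therefore hold for the RefSeq start site only. Whether any of these matches bears on the differences between the groups was not tested. Ttn also held a MEF2 site and a copy of GGAATG, the windows of Ldb3 a CArG box and that of Ankrd2 TATAAA. In 3 of 4 windows of Nebl a match was found: a CArG box, CACGTG and GGAATG in 1 window each. The windows of Csrp3 and Cmya5 held none of these letters.

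The level of each member was also set against other cardiomyocyte RNAs of the same library. For each member the mean log2 CPM of the 9 cardiomyocyte markers was subtracted from its log2 CPM. The relative level of Tcap was −2.63, −2.67, −3.04 and −3.11 in wild-type replicates 1 to 4, against −3.36, −3.53, −3.47 and −3.38 in the knockout replicates, so the groups lay apart by this measure too. The marker mean itself ran only from 11.87 to 11.97 over the libraries, a narrower range than the gap in Tcap between the groups. The groups of Tcap therefore had to stay apart, and this is no evidence beyond its own values. The difference in relative level was −0.57 (two-sided exact permutation p = 0.0286, adjusted p = 0.41 over all genes tested). Both are the smallest values that this test gave any gene, so the adjusted p could not have passed. No other tested member had groups apart by this measure, which makes 1 of 9, compared with 6.97% of all genes tested. For Myoz2 the difference was 0.13 (exact permutation p = 0.143), with wild-type replicate 2, at −2.99, level with the highest knockout library, while the others lay between −3.24 and −3.19. For Ttn it was 0.02 (exact permutation p = 0.457).

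Per length of exon, Tcap, Ttn and Ankrd1 were the most abundant members and Ankrd2 the least. Levels are given as CPM per kilobase of exon. In wild-type libraries Tcap was at 562 ± 82.7, Ttn at 524 ± 10.5 and Ankrd1 at 416 ± 48.4 (SD, n = 4 each). Tcap lay above Ttn in 2 of the 4 wild-type libraries, so their order there was not beyond the spread. In knockout libraries Tcap, at 385 ± 27.9, ranked 3, after Ttn at 546 ± 11.2 and Ankrd1 at 434 ± 25.3. Csrp3 at 222 ± 15.8 and Actn2 at 205 ± 14.8 followed in wild-type, then Myoz2 at 126 ± 8.35 and Cmya5 at 121 ± 8.39. Myoz2 lay above Cmya5 in 1 of the 4 wild-type libraries, whereas the other steps that do not involve Tcap held in all 8 libraries. Ldb3 was at 86.4 ± 4.14, Nebl at 23.1 ± 0.555 and Ankrd2 at 0.121 ± 0.0582.

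**Figure D5:**
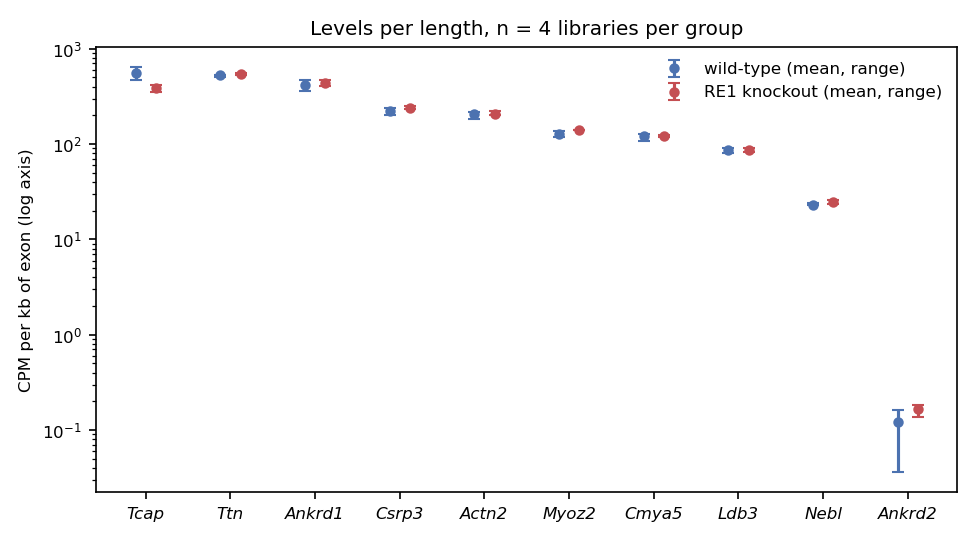
Level of each member in CPM per kilobase of exon (log axis), ordered by the wild-type mean, with points for group means and bars for the range of 4 libraries. Tcap heads the wild-type order at 562 and ranks 3 in the knockout at 385, and Ankrd2 lies far below the rest at 0.121.

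The members also differed in how much they varied between libraries. In wild-type libraries the coefficient of variation of normalized counts ran from 2.05% for Ttn to 14.7% for Tcap among the 9 tested members, with Ankrd1 next at 11.7%. In knockout libraries it ran from 0.591% for Myoz2 to 7.36% for Tcap. For 6 of the 9 it was lower in the knockout libraries, a difference that was not tested.

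Other genes of the Z-disc showed no change past the edgeR test. Of 24 further Z-disc genes, 22 were tested, of which 12 were positive and 10 negative, with a median log2 fold change of 0.01 and 0 called. At an unadjusted p under 0.05 there were 4, where all genes tested gave 2176 of 16551. DESeq2 called 2 higher, as it did 0.778% of the genes it gave an adjusted p. Myot, which encodes the actin-bundling protein myotilin, had the smallest p: it had 1064 ± 181 and 1395 ± 144 normalized counts (SD, n = 4 each), at a log2 fold change of 0.40 (SE 0.11; adjusted p = 0.102 in edgeR), with groups that did not overlap. With the replicate number as a block Myot passed (0.40, edgeR adjusted p = 0.0184), as it did in DESeq2 (adjusted p = 0.0195) and without the low-count filter (edgeR adjusted p = 7.74e-04). It did not pass with the robust option (edgeR adjusted p = 0.286), and with the clock index as a covariate its value was 0.10 (edgeR adjusted p = 0.933). In the authors' deposited table the adjusted p of Myot was 0.456. Pdlim5, which encodes the PDZ and LIM domain protein ENH, was at 0.15 (SE 0.04; adjusted p = 0.127 in edgeR and 0.0362 in DESeq2). Flnc, Des, Cryab and Nexn, which encode filamin C, desmin, αB-crystallin and nexilin, had log2 fold changes of 0.004, 0.11, −0.05 and −0.03, none of them past the test.

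Genes of other titin partners and M-band proteins were likewise not called. All 16 were tested, with 8 positive and 8 negative, a median log2 fold change of −0.001 and 0 called by edgeR or DESeq2, and 6 at an unadjusted p under 0.05, where all genes tested gave 2176 of 16551. The smallest p belonged to Fhl1, whose LIM domain protein binds the elastic part of titin (0.24, SE 0.08; adjusted p = 0.187 in edgeR), and the next to the ubiquitin ligase gene Trim54 or MURF3 (−0.13, SE 0.05; adjusted p = 0.228 in edgeR). Ankrd23, another member of the ankyrin-repeat family of Ankrd1 and Ankrd2, was at 0.32 (SE 0.12; adjusted p = 0.259 in edgeR). It passed, as did Fhl1, where no low-count filter was used (edgeR adjusted p = 0.00891 and 0.033). The M-band gene Myom1 was at 0.12 (SE 0.04; adjusted p = 0.27 in edgeR), and Rbm20, which regulates the splicing of titin, at −0.09 (SE 0.05; adjusted p = 0.448 in edgeR). Ankrd23, Myom1 and Rbm20 and the genes of filamin C, desmin, αB-crystallin and nexilin were chosen for their roles after their values were seen.

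The profiles most like that of Tcap were found by the root-mean-square distance between log2 CPM values centred on the mean of the 8 libraries. The 5 nearest of the genes tested were Angptl2, Usp2, Sez6l2, Aoc2 and Pdxk, at distances of 0.0924 to 0.109. Their log2 fold changes were −0.53, −0.46, −0.61, −0.50 and −0.41, and 2 of them were past the edgeR test (Angptl2 with an adjusted p of 0.00751 and Sez6l2 with 0.0379). Over all genes tested 0.785% were called. The distance includes the difference between the groups, so fold changes like that of Tcap follow from the way these 5 genes were chosen. Usp2 encodes a deubiquitinase, Angptl2 a secreted angiopoietin-like protein and Pdxk pyridoxal kinase. For Myoz2 the nearest were Col4a5, Drap1, Tfb1m, Ube2m and Elf1, at distances of 0.0331 to 0.0377, and none of them passed the test.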

How the data were processed

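The authors deposited raw read counts per Ensembl gene and a normalized signal equal to the count divided by 1 size factor per library. They also deposited a table of log2 fold changes with p-values and adjusted p-values, whose sign was turned to knockout over wild-type. Libraries were made from 900 ng of total RNA and read as paired ends of 125 bases, per the labels' protocols. STAR, DESeq2 and mm10 are listed in the submitters' processing notes, with no versions. Symbols and exon lengths are from GENCODE M21 (GRCm38), and member symbols matched those in the file.

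Raw counts were tested with edgeR 4.0.16 (R 4.3.3): TMM, filterByExpr, group as the only term, the default empirical Bayes step and the quasi-likelihood F test. Two-sided p-values were adjusted by Benjamini-Hochberg across every tested gene, and those under 0.05 were called. Standard errors come from the fold change and F. Log2 CPM was computed with prior count 2. DESeq2 1.42.0 and limma 3.58.1 were alternatives, as were other size factors and filters, each library left out, the replicate block and the covariates. The planned design did not say whether the robust option would be used. The software default, without it, was kept, and the robust option and bias-adjusted deviances were added as alternatives after seeing the data. The edgeR step was tested on simulated data. The labels do not state that each library is a separate mouse, so p-values measure the spread between libraries, which may be technical.

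The members and lists were chosen with earlier results of these data known, among them a value for Tcap that missed the threshold in an edgeR fit with the robust option. All members are named. Of other lists, called genes and the pair of smallest p are named, with exceptions marked.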

Additional observations from a re-analysis of the deposited data

Results flagged for a closer look

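In 24 groups of 4 libraries (the 10 members, Nppa and Nppb, each in wild-type and knockout), 2 had a library apart from the other 3 by Dixon's criterion, which chance alone gives in about 1 of 20 groups. The Actn2 value of knockout replicate 1 was 22524 normalized counts, with the other knockout libraries at 20159 to 20553. The Nppa value of wild-type replicate 2 was 628 normalized counts, with the lowest wild-type library at 327. Without knockout replicate 1 the log2 fold change of Actn2 was −0.01 and stayed short of the threshold.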

How the results depend on the processing

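The number of genes called over all genes was 130. It was 546 without the low-count filter, 296 in DESeq2, 62 with the mitochondrial rRNA covariate and 2 with the clock index covariate. Without single libraries it ran from 21 to 241. The robust option gave 176 and bias-adjusted deviances 156, both chosen after seeing the data.

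The number of members called was 1. It was 2 without the low-count filter and in DESeq2, where Myoz2 joined Tcap. It was 0 with the robust option, with the clock index covariate and with the mitochondrial rRNA covariate, and ran from 0 to 2 without single libraries (0 without knockout replicate 2, and 2 without wild-type replicate 2). Of the further Z-disc genes, 1 was called without the low-count filter, 1 with the replicate block and 2 in DESeq2. Of the titin-binding partners, 2 were called without the low-count filter. The number of members whose groups lay apart relative to cardiomyocyte markers was 1, and ran from 1 to 3 without single libraries (2 without wild-type replicate 1 or 4, and 3 without wild-type replicate 2). The cause of these differences was not tested.

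With the replicate block 146 genes were called over all genes and Tcap was at −0.53 (edgeR adjusted p = 0.011). No pairing by number was seen. Deviations of same-numbered libraries correlated between −0.0846 and 0.0158, and 0 of 4 wild-type libraries correlated best with its own number. A weak pairing could be missed with 4 libraries per group, and the labels do not say whether the numbers pair mice. The fold changes of Tcap, Ttn, Myoz2, Nebl and Ankrd1 kept their sign in all 19 alternatives, while Csrp3 turned negative in 1 and Ldb3, Actn2 and Cmya5 in 3 each, none of them called. Depth limits Ankrd2, with at most 8 counts per library.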
